A study of Mus musculus with 8 samples.

Results

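The genes described here are 37 markers of the inner retinal neurons: amacrine cells, horizontal cells and retinal ganglion cells. They were chosen by name as genes known to be used by these cells, and each gene was read from its brightest probe. They fall into 7 inhibitory amacrine markers, 3 cholinergic markers, 3 dopaminergic markers, 5 horizontal cell markers, 5 markers shared among inner retinal neurons and 14 ganglion cell markers. All 37 had a named probe on the array, among 20018 genes with a symbol there, and all 37 were well above background on each of the 8 arrays and were tested.

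Total RNA of whole retina from 2-week-old C57BL/6 mice was measured on 1-colour arrays in 4 Lpcat1 WT samples and 4 Lpcat1 KO samples. Lpcat1 encodes a lysophospholipid acyltransferase that makes saturated phosphatidylcholine, and the KO mice lack it in the whole body from the start, so the retina is not a model of loss in 1 cell type. The line was made on C57BL6/N and crossed with C57BL6/J to remove the rd8 mutation of Crb1, and the study kept animals of both genotypes that were not homozygous for rd8. The labels do not say whether the samples came from separate animals, so the p-values measure only the spread between these samples, which may be technical.

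Amacrine cells are inhibitory interneurons that release GABA or glycine onto bipolar cells, ganglion cells and each other, and small classes of them also release acetylcholine or dopamine. Horizontal cells feed back onto photoreceptor terminals in the outer plexiform layer. Ganglion cells are the output neurons of the retina, with long axons rich in neurofilament that form the optic nerve. None of these cells has an outer segment, and the study's interest was the loss of photoreceptor cells, so their markers show how the other neurons of the same retinas compared between genotypes.

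The sequences upstream of the start were looked up for the genes the results turn on, from RefSeq (build GRCm38.p6), which held a window for 24 of the 37 genes. The 250 bases before the start are shown 5′ to 3′ for the pair of cholinergic genes that share a locus, for both GABA-synthesising enzymes and for the ganglion cell factor Isl2, with every match to the motifs searched in capitals.
Slc18a3, chr14:32464851-32465100, reverse strand: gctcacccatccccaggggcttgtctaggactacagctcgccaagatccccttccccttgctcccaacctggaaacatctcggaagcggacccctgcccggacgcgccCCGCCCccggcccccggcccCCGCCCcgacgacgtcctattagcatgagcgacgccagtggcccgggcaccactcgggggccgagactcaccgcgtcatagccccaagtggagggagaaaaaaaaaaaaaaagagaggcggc
Chat, chr14:32465910-32466159, reverse strand: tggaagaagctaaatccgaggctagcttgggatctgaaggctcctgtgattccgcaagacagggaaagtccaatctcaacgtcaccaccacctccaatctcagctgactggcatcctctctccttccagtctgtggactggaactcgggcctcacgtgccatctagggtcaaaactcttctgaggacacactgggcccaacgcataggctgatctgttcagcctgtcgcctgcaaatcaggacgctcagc
Gad1, chr2:70561879-70562128, forward strand: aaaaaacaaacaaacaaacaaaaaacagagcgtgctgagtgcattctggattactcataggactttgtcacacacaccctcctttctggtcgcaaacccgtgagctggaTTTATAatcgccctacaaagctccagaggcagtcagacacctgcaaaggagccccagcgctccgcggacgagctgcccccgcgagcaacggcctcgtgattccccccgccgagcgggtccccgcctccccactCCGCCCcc
Gad2, chr2:22622077-22622326, forward strand: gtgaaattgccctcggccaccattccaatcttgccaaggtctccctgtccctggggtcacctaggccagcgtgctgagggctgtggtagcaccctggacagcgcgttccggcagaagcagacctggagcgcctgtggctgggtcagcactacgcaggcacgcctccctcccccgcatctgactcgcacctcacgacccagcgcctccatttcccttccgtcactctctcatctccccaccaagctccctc
Isl2, chr9:55540899-55541148, forward strand: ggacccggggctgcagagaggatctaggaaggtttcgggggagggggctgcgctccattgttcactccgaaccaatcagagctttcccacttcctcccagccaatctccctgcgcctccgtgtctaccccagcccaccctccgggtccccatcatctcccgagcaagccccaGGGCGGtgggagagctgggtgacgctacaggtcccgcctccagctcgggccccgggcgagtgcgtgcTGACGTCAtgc

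Both strands were searched for the cyclic AMP response element TGACGTCA, the AP-1 site TGACTCA, the TATA box TATAAA, the GC box GGGCGG and the homeodomain core TAATTA. The Slc18a3 window held 2 GC boxes, read as CCGCCC, and the Chat and Gad2 windows held no match. Gad1 had a TATA box and a GC box, and Isl2 had a GC box and a cyclic AMP response element just before its start. The cyclic AMP response element was found for 3 of the 24 genes (Isl2, Pax6 and Th) and in 1.55% of 32851 windows of the same length. The AP-1 site was found for 0 of the 24 genes and in 4.46% of all windows. The GC box was found for 14 of the 24 genes, in at least 1 of their windows, and in 32.7% of all windows. TATA boxes stood before 5 of the 24 (Ddc, Elavl3, Gad1, Prox1 and Slc5a7) and in 12.4% of all windows, and the homeodomain core before 3 (Elavl4, Slc17a6 and Tfap2a) and in 4.84%. The gene counts take any window of a gene, while the percentages count single windows, so the 2 are not like for like. These are matches of letters and not known binding sites.

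Levels below are log2 of the probe signal relative to the 75th percentile of its array, and a difference is KO minus WT on this scale. A gene was called when limma gave an adjusted p under 0.05 and a fold over 1.2. In a whole-tissue sample, fewer cells of a type and less RNA per cell cannot be told apart. All 8 arrays were on 1 slide and in 1 scan, with the WT arrays in one row and the KO arrays in the other, so row and genotype cannot be told apart. The 75th percentile signal was 638.4 to 737.8 and 33110 to 36366 probes per array were well above background. The number of arrays limits the precision. The Lpcat1 probe read -0.41 ± 0.03 (SD, n = 4) in WT and -0.87 ± 0.06 (SD, n = 4) in KO, a difference of -0.46 (SE 0.04, adjusted p = 0.0036 by limma), and KO was at 72.5% of WT with no overlap. Whether this probe lies in the removed exons was not given in the sources used here, so the remaining signal is not read as transcript.

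Across the 37 genes, 26 were higher and 11 lower in KO by sign, with a median difference of 0.06 and a range of -0.24 to 0.25. Over all 14937 genes tested, 6299 were higher and 8638 lower, with a median of -0.02. No member was called in either direction, while 1.99% of all genes were called higher and 1.49% called lower. At an adjusted p under 0.05 with any fold, limma gave 2 members that rose, Slc18a3 and Nefh, and 0 that fell, against 3.3% of all genes that rose and 3.32% that fell at that threshold. At an unadjusted p under 0.05 there were 14 members (37.8%), and 26.2% of all genes. The methods' t-test with Benjamini-Hochberg adjustment gave 5 members that were higher and 0 that were lower, where 3.49% and 4.65% of all genes passed it in these directions. All KO values lay above all WT values for 8 members (Gad1, Gad2, Slc6a9, Slc18a3, Onecut2, Nefh, Slc17a6 and Thy1) and below them for 3 (Isl2, Stmn2 and Gap43). Among all genes, 8.78% had every KO value above WT and 12.4% had every KO value below.

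**Figure D1:**
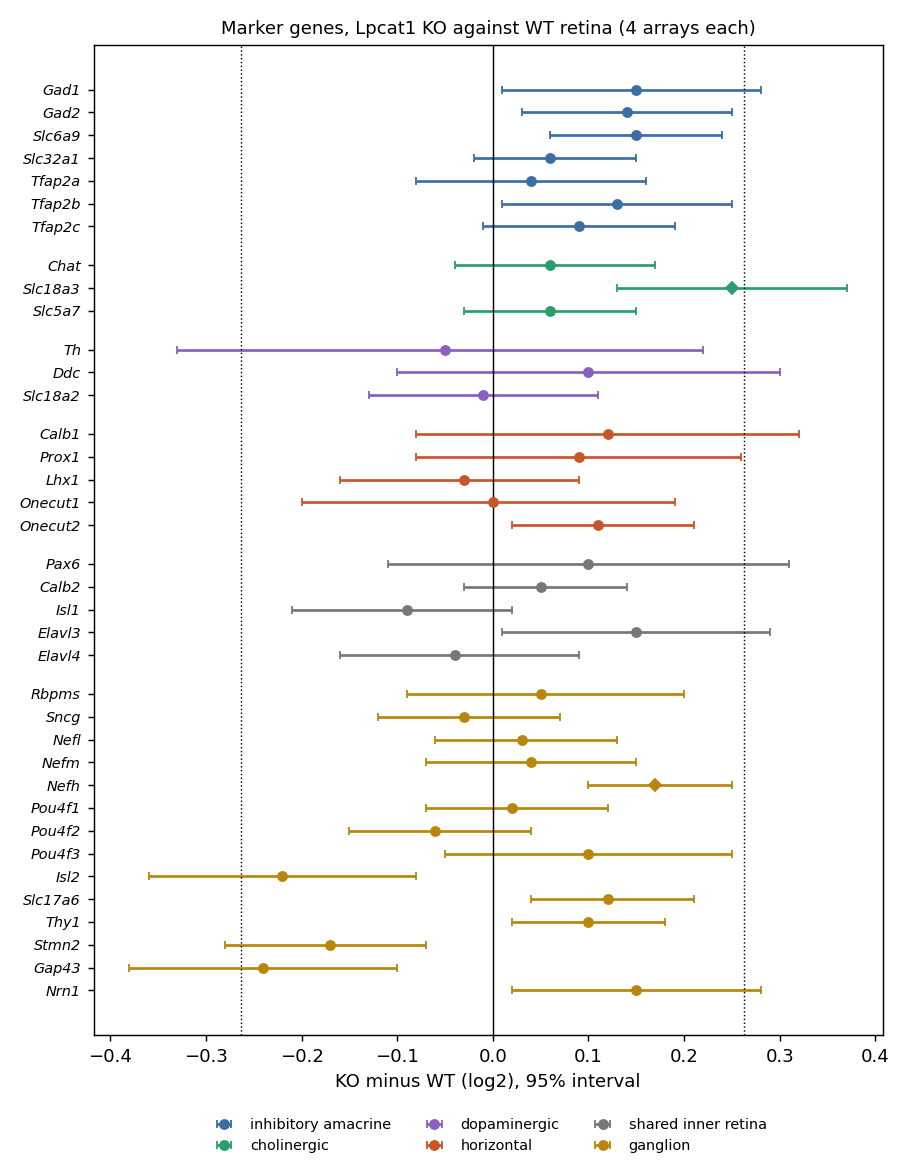
Difference of each of the 37 markers between KO and WT retina (x axis, log2 of KO over WT) and its 95% interval from limma, by group; diamonds mark the genes with an adjusted p under 0.05 (Slc18a3 and Nefh) and dotted lines the 1.2-fold limit. The intervals of the 7 inhibitory markers sit mostly right of 0, while the ganglion cell markers spread from -0.24 (Gap43) to 0.17 (Nefh).

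The inhibitory amacrine markers were all higher in KO by sign (7 of 7), with a median difference of 0.13 and a range of 0.04 to 0.15, and none passed the adjusted threshold. Gad1, which encodes the larger GABA-synthesising enzyme, read 3.35, 3.49, 3.55 and 3.59 in WT and 3.63, 3.62, 3.60 and 3.71 in KO. The lowest KO array lay just above the highest WT array, and the difference was 0.15 (SE 0.06, adjusted p = 0.171 by limma), with KO at 110.8% of WT (95% interval 101.0 to 121.5%). Gad2, the smaller enzyme, read 1.65, 1.56, 1.45 and 1.55 in WT and 1.68, 1.70, 1.69 and 1.71 in KO. Its KO arrays were close together and its WT arrays spread wider, and the difference was 0.14 (SE 0.05, adjusted p = 0.113). Slc6a9, the glycine transporter GlyT1 of glycinergic amacrine cells, read 5.82, 5.74, 5.74 and 5.73 in WT and 5.93, 5.95, 5.87 and 5.87 in KO. The difference was 0.15 (SE 0.04, adjusted p = 0.0685), and a dimmer second probe gave 0.20 (SE 0.04, adjusted p = 0.0253), also with no overlap.

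The remaining inhibitory markers overlapped between genotypes. Slc32a1, the vesicular transporter that loads both GABA and glycine, differed by 0.06 (95% interval -0.02 to 0.15). The AP-2 transcription factors, which direct amacrine and horizontal cell fate, differed by 0.04 for Tfap2a, 0.13 for Tfap2b and 0.09 for Tfap2c, with adjusted p of 0.670, 0.172 and 0.253. The summed relative level of the 7 genes was 137 to 140 in the WT arrays and 148 to 150 in the KO arrays, with Slc6a9 and Slc32a1 among its terms, so the sum is weighted to those probes. The sums of the cholinergic markers (5.47 to 5.65 against 5.98 to 6.76), of the shared markers (25.9 to 28.3 against 28.4 to 29.9) and of the ganglion cell markers (219 to 222 against 223 to 230) were also higher in every KO array, and those of the dopaminergic (2.12 to 2.55 against 2.18 to 2.38) and horizontal cell markers (3.26 to 3.52 against 3.51 to 3.80) overlapped. Each sum is carried by its brightest probes.

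The cholinergic markers, used by starburst amacrine cells, were 3 of 3 higher by sign with a median difference of 0.06, and Slc18a3 rose. Slc18a3, the vesicular acetylcholine transporter, read 1.87, 1.85, 1.81 and 1.83 in WT and 2.08, 2.05, 2.01 and 2.23 in KO. Every KO array lay above every WT array, with the fourth KO array highest. The difference was 0.25 (SE 0.05, adjusted p = 0.0386), with KO at 118.9% of WT (95% interval 109.3 to 129.5%). Leaving out any one of the 8 arrays took its adjusted p above 0.05, to at most 0.0989 without WT replicate 3, while the difference stayed at 0.20 to 0.28.

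Chat, the enzyme that makes acetylcholine, read -0.13, -0.22, -0.16 and -0.21 in WT and -0.08, -0.08, -0.21 and -0.10 in KO. The genotypes overlapped through the third KO array, and the difference was 0.06 (SE 0.04, adjusted p = 0.431). Slc18a3 lies inside the span of Chat in the RefSeq table, on the same strand, with their starts, next to the windows shown above, 1059 bases apart. Within each array, Slc18a3 minus Chat was 2.02 ± 0.04 (SD, n = 4) in WT and 2.21 ± 0.09 (SD, n = 4) in KO, a difference of 0.19. This pair was set against each other after its values were seen, so the difference is a description and was not tested. Slc5a7, the choline transporter that supplies the enzyme, differed by 0.06 (95% interval -0.03 to 0.15), and its dimmer second probe by -0.09.

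The 3 dopaminergic markers gave no difference past the threshold and no member without overlap. Th, the rate-limiting enzyme of dopamine synthesis, read 0.57, 0.41, 0.73 and 0.22 in WT and 0.53, 0.27, 0.60 and 0.31 in KO. Its arrays spread more than those of any other member in WT (SD 0.22), the genotypes overlapped, and the difference was -0.05 (95% interval -0.33 to 0.22, adjusted p = 0.819). In both genotypes the samples numbered 1 and 3 read at or above 0.53 and those numbered 2 and 4 at or below 0.41. Ddc, the next enzyme of the pathway, read -2.82, -2.57, -2.61 and -2.39 in WT and -2.59, -2.48, -2.48 and -2.44 in KO, a difference of 0.10 (SE 0.09, adjusted p = 0.514), and its second probe was not tested for low signal. Slc18a2, the vesicular monoamine transporter, differed by -0.01 (95% interval -0.13 to 0.11).

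The horizontal cell markers had a median difference of 0.09, with 3 of 5 higher by sign. Calb1, a calcium-binding protein that marks horizontal cells and some amacrine cells, read -2.78, -2.92, -2.86 and -2.82 in WT and -2.93, -2.60, -2.81 and -2.54 in KO. KO replicates 2 and 4 were higher than every WT array and the other KO arrays were not, so the difference of 0.12 (SE 0.09, adjusted p = 0.438) lay within the spread. Onecut2, a transcription factor of early horizontal cell development, read 0.83, 0.91, 0.89 and 0.78 in WT and 0.92, 0.98, 0.95 and 1.01 in KO. The highest WT array (0.91) lay next to the lowest KO array (0.92), and the difference was 0.11 (SE 0.04, adjusted p = 0.153). The others, Prox1 (0.09), Lhx1 (-0.03) and Onecut1 (0.00), are factors of horizontal cell development and overlapped, with intervals of -0.08 to 0.26, -0.16 to 0.09 and -0.20 to 0.19.

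The 5 markers shared by several inner retinal neurons had a median difference of 0.05. Pax6, a transcription factor kept on in amacrine and ganglion cells, read 2.46, 2.50, 2.47 and 2.70 in WT and 2.43, 2.58, 2.70 and 2.81 in KO. It overlapped between genotypes with a difference of 0.10 (SE 0.09, adjusted p = 0.542), and its second probe gave -0.10, so the probes disagreed in sign. Elavl3, a neuronal RNA-binding protein, read 3.72, 3.62, 3.45 and 3.50 in WT and 3.74, 3.71, 3.71 and 3.72 in KO. The first WT array reached the KO arrays, and the difference was 0.15 (SE 0.06, adjusted p = 0.178). Calb2, or calretinin, differed by 0.05, Isl1, a LIM-homeodomain factor of ganglion, amacrine and bipolar cells, by -0.09, and Elavl4 by -0.04, with all 3 intervals spanning 0.

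**Figure D2:**
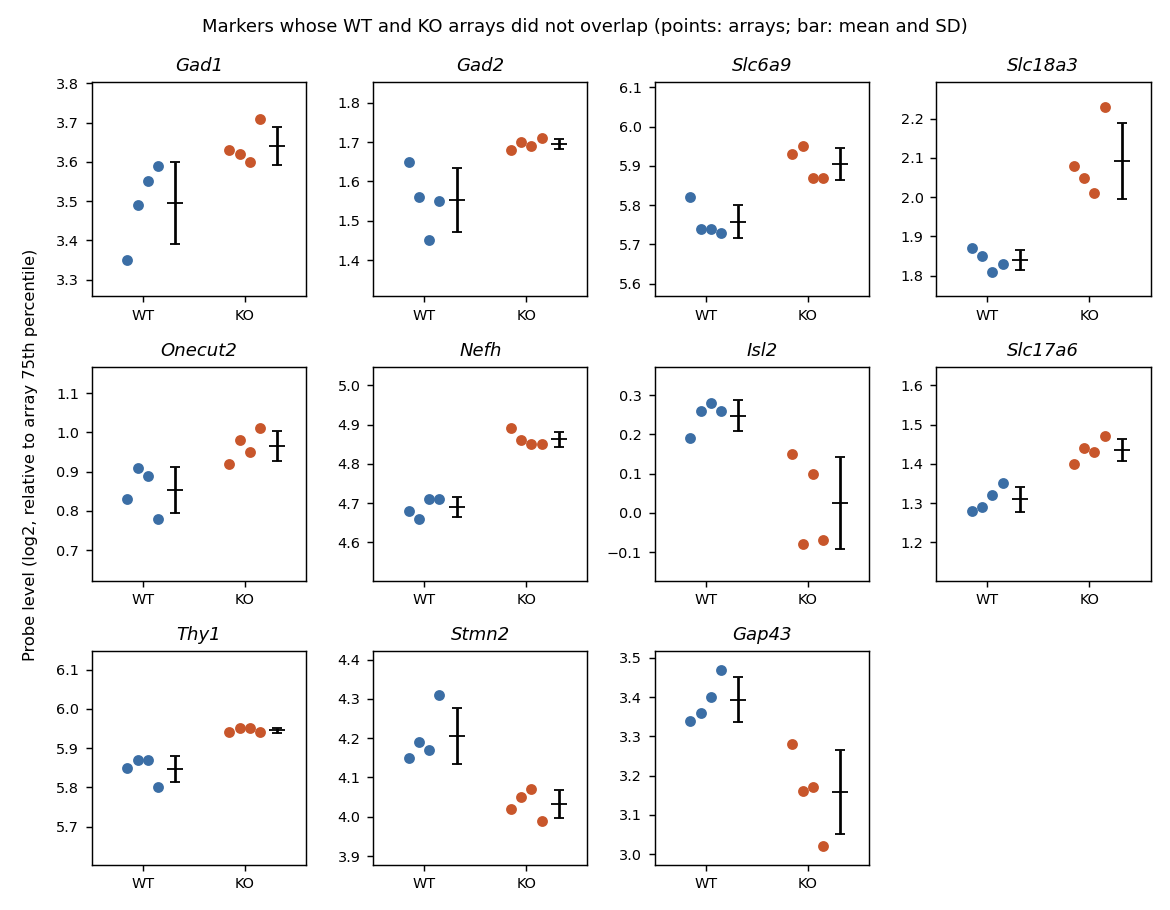
Level of the 11 markers whose WT and KO arrays did not overlap (y axis, log2 relative to the array's 75th percentile; 1 point per array, 4 WT and 4 KO, bars the mean and SD); every panel spans the same height in log2 units. The 8 higher markers include Slc18a3 (0.25) and Nefh (0.17), and the 3 lower ones are Isl2, Stmn2 and Gap43.

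The ganglion cell markers differed in both directions, with 9 of 14 higher and 5 lower by sign and a median difference of 0.04. Rbpms, an RNA-binding protein found in nearly all ganglion cells, read -0.08, -0.02, 0.04 and -0.09 in WT and -0.05, -0.10, 0.10 and 0.12 in KO. Its difference was 0.05 (95% interval -0.09 to 0.20, adjusted p = 0.659), and its other probes gave -0.08 and 0.03. Pou4f2, the Brn3b factor needed for ganglion cell development, read 0.44, 0.47, 0.52 and 0.57 in WT and 0.48, 0.39, 0.43 and 0.46 in KO, a difference of -0.06 (95% interval -0.15 to 0.04, adjusted p = 0.468). The related Pou4f1 and Pou4f3 differed by 0.02 and 0.10, and gamma-synuclein, Sncg, by -0.03.

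Of the neurofilament subunits, the heavy one rose. Nefh read 4.68, 4.66, 4.71 and 4.71 in WT and 4.89, 4.86, 4.85 and 4.85 in KO. The groups were far apart for their spread (SD 0.02 in each), and the difference was 0.17 (SE 0.03, adjusted p = 0.0297), with KO at 112.7% of WT (95% interval 106.9 to 118.9%). A dimmer second probe also gave 0.17 (adjusted p = 0.0678) without overlap. The adjusted p of Nefh stayed under 0.05 in 1 of the 8 fits that left out an array, and the difference stayed at 0.16 to 0.18. The light and medium subunits, Nefl and Nefm, differed by 0.03 and 0.04 (95% intervals -0.06 to 0.13 and -0.07 to 0.15).

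The 3 markers with every KO array below WT did not pass the threshold. Gap43, the growth-associated protein of growth cones, read 3.34, 3.36, 3.40 and 3.47 in WT and 3.28, 3.16, 3.17 and 3.02 in KO. The groups did not overlap, and the difference was -0.24 (SE 0.06, adjusted p = 0.0577), with KO at 84.7% of WT (95% interval 77.0 to 93.2%). Stmn2, a microtubule-destabilising growth cone protein, read 4.15, 4.19, 4.17 and 4.31 in WT and 4.02, 4.05, 4.07 and 3.99 in KO, a difference of -0.17 (SE 0.05, adjusted p = 0.0684). Isl2, a LIM-homeodomain factor of a subset of ganglion cells, read 0.19, 0.26, 0.28 and 0.26 in WT and 0.15, -0.08, 0.10 and -0.07 in KO. Its KO arrays spread more than its WT arrays (SD 0.11 against 0.04), and the difference was -0.22 (SE 0.06, adjusted p = 0.0729). Without KO replicate 1, the adjusted p of Gap43 was 0.0401 at a difference of -0.28, and it was called.

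Slc17a6, the vesicular glutamate transporter of ganglion cells, read 1.28, 1.29, 1.32 and 1.35 in WT and 1.40, 1.44, 1.43 and 1.47 in KO. The arrays did not overlap, and the difference was 0.12 (SE 0.04, adjusted p = 0.0811). Thy1, a surface glycoprotein of ganglion cells, read 5.85, 5.87, 5.87 and 5.80 in WT and 5.94, 5.95, 5.95 and 5.94 in KO, a difference of 0.10 (SE 0.03, adjusted p = 0.125) with no overlap. Nrn1, or neuritin, differed by 0.15 (95% interval 0.02 to 0.28, adjusted p = 0.162), with KO and WT overlapping.

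**Figure D3:**
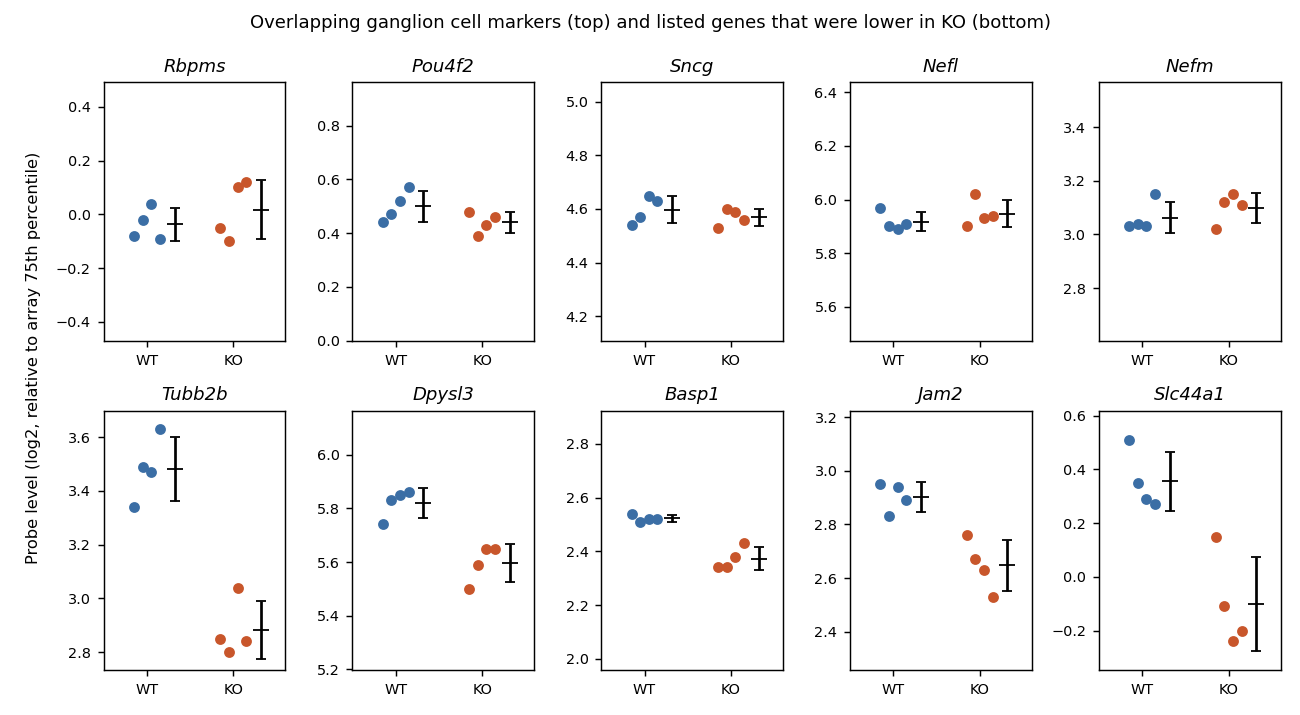
Level (y axis, log2 relative to the array's 75th percentile; 1 point per array, bars the mean and SD, equal span in every panel) of 5 ganglion cell markers picked from those that overlapped between genotypes (top) and of listed genes that fell at an adjusted p under 0.05 (bottom). The top panels differ by -0.06 (Pou4f2) to 0.05 (Rbpms), while 2 overlapping markers not plotted, Nrn1 and Pou4f3, differ by 0.15 and 0.10, and the bottom panels differ by -0.15 (Basp1) to -0.60 (Tubb2b).

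Genes that work beside these markers were read from lists of the same pathways. Of the GABA and glycine handling genes, 6 of 7 tested were higher by sign, 0 were called (4 at an unadjusted p under 0.05 by limma), and the median was 0.08. Gldc, of the glycine cleavage system, differed by -0.13 (adjusted p = 0.0647). Of the 8 starburst cell genes, 5 were higher and 3 lower by sign, with a median of 0.07 and 3 at an unadjusted p under 0.05 by limma. Only 1 was called, and it went against that median: Slc44a1, a choline transporter, fell by 0.46 (SE 0.09, adjusted p = 0.0344), from 0.35 ± 0.11 to -0.10 ± 0.18 (SD, n = 4). Its adjusted p stayed under 0.05 in 1 of the 8 fits without an array, and reached 0.0918 without WT replicate 2, and its other probes gave -0.26 and -0.20. Dopamine synthesis and signalling genes gave 0 calls among 12, with a median of 0.05 and 4 at an unadjusted p under 0.05 by limma. Horizontal cell genes gave 0 calls among 10 tested, with a median of 0.03 and 1 at an unadjusted p under 0.05 by limma.

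In the list of amacrine peptides and subtype genes, 2 of 18 tested genes were called higher and 1 lower, and all 3 encode neuropeptides. Cck, cholecystokinin, read 2.54, 2.58, 2.75 and 2.67 in WT and 3.17, 3.21, 3.18 and 3.26 in KO, a rise of 0.57 (SE 0.05, adjusted p = 0.0036) to 148.6% of WT. Vip, vasoactive intestinal peptide, read -0.68, -0.75, -0.66 and -0.62 in WT and -0.34, -0.29, -0.33 and -0.41 in KO, a rise of 0.34 (SE 0.04, adjusted p = 0.0104) to 126.2% of WT. Sst, somatostatin, read -1.06, -1.02, -1.05 and -1.07 in WT and -1.51, -1.31, -1.37 and -1.32 in KO, and fell by 0.33 (adjusted p = 0.0162) to 79.7% of WT. Cck and Vip were called in all 8 fits that left out an array, and Sst in 6, with adjusted p of 0.0606 without WT replicate 2 and 0.0510 without WT replicate 3. Sst was also not called without a filter on dim probes (adjusted p = 0.0626) or with normexp background correction (-0.26, below the fold limit). With the replicate number as a block in limma, Vip (adjusted p = 0.0564) and Sst (adjusted p = 0.0527) were not called. The other neuropeptide genes did not pass, with Tac1 (substance P precursor) at -0.04, Npy (neuropeptide Y) at -0.15 (adjusted p = 0.172), Crh at -0.14 and Penk at 0.14. Slc17a8, the glutamate transporter of a glutamatergic amacrine class, differed by 0.31 (adjusted p = 0.0603).

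**Figure D4:**
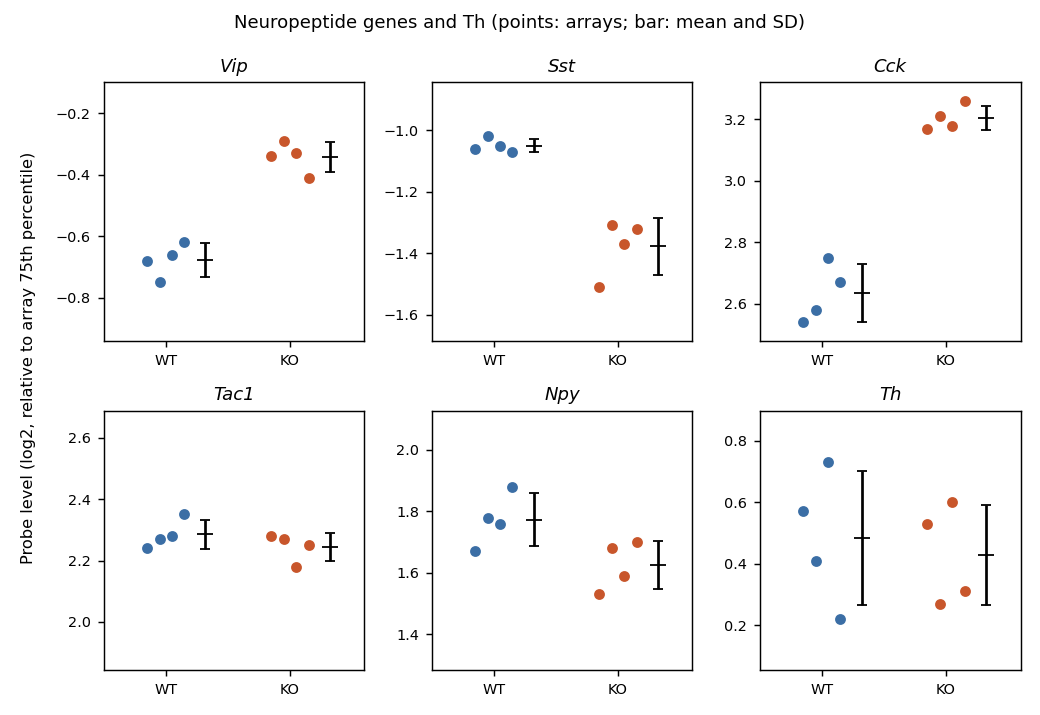
Level (y axis, log2 relative to the array's 75th percentile; 1 point per array, bars the mean and SD, equal span in every panel) of neuropeptide genes used by amacrine cells, with Th. Vip and Cck are higher in KO, Sst is lower, and Tac1, Npy and Th overlap; of these 6 genes, Th varies most within each genotype.

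Among 20 ganglion cell subtype genes tested, 0 were called and the median was 0.02, with 12 higher and 8 lower by sign. At an unadjusted p under 0.05 by limma there were 5 (25%), near the 26.2% of all genes. All KO values lay above WT for 4 of the 20, Cartpt (0.14) and Chrna6 (0.10) included, and below for 1, where 8.78% and 12.4% of all genes did so. Jam2, which marks a directional ganglion cell type, fell by 0.26 (SE 0.06, adjusted p = 0.041), below the fold limit and without overlap, and passed that threshold in 1 of 8 fits without an array (at most 0.104 without WT replicate 3). In the axon and neurofilament list, 7 of 17 were higher and 10 lower by sign, with 1 called. Tubb2b, a beta-tubulin of immature neurons, read 3.34, 3.49, 3.47 and 3.63 in WT and 2.85, 2.80, 3.04 and 2.84 in KO, and fell by 0.60 (SE 0.08, adjusted p = 0.00985) to 66.0% of WT. Its second probe fell by 0.42 (adjusted p = 0.0036), and both probes were without overlap. Dpysl3, a growth cone phosphoprotein, differed by -0.22 (adjusted p = 0.0419) and Basp1, another growth cone membrane protein, by -0.15 (adjusted p = 0.0496), both below the fold limit and above 0.05 in each fit that left out an array.

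Of 10 injury-response genes tested, 3 were called higher: Atf3 at 0.75 (adjusted p = 0.00254), Jun at 0.50 (adjusted p = 0.0109) and Chac1 at 0.27 (adjusted p = 0.031). Atf3 and Jun are stress-induced transcription factors that injured ganglion cells use, but they are not restricted to ganglion cells. Chac1, a glutathione-degrading enzyme of the unfolded protein response, was called in 2 of the 8 fits without an array (adjusted p at most 0.0850, without KO replicate 2). With the replicate number as a block in limma, Jun (adjusted p = 0.0518) and Chac1 (adjusted p = 0.0584) were not called.

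Lists of markers of the other cells of the same retinas differed in how far they followed genotype. Of 16 rod genes, 15 were lower by sign and 3 were called lower, with a median of -0.21 and a summed relative level between 3090 and 3200 in the WT arrays and between 2610 and 2810 in the KO arrays. Cone genes were higher in 10 of 10 (median 0.19, 2 called higher), bipolar cell genes in 10 of 12 (median 0.09, 0 called by limma, 4 at an unadjusted p under 0.05), Müller glia genes in 11 of 12 (median 0.16, 3 called higher), astrocyte genes in 6 of 6 (median 0.22, 0 called by limma, 4 at an unadjusted p under 0.05) and microglia genes in 12 of 12 (median 0.35, with 6 called higher). The summed level of the Müller glia list lay between 353 and 372 in the WT arrays and between 420 and 429 in the KO arrays, and that of the microglia list, 31.5 to 39.2 and 35.2 to 41.5, overlapped. The brightest probe of that list, Itgam, differed by 0.02, and without it the sums were 13.3 to 14.4 and 16.8 to 17.5. The oligodendrocyte (median -0.06), pigment epithelium (0.05) and lens (-0.05) lists had 0 calls (0, 1 and 1 genes at an unadjusted p under 0.05 by limma), and endothelium genes were higher in 2 of 7 (median -0.11, 1 called higher). All markers of the rod, cone, bipolar, Müller glia, astrocyte and microglia lists were above background on at least 1 array. The medians of the bipolar list (0.09) and the inhibitory amacrine markers (0.13) were of like size. Whether these values play a part in those of the inner retinal markers was not tested.

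**Figure D5:**
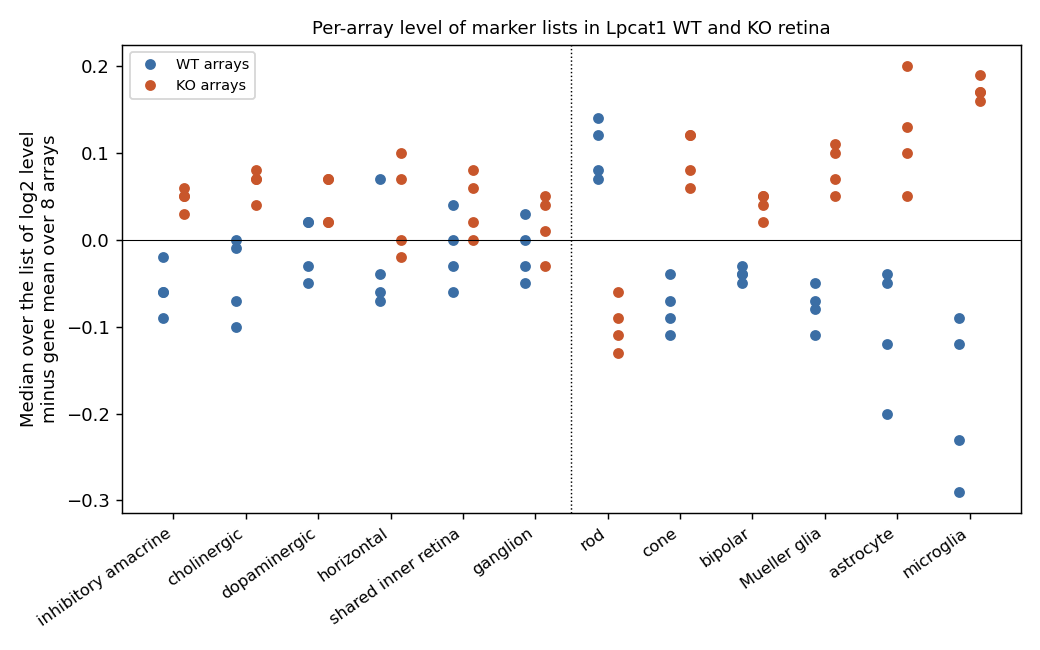
Level of each marker list in each array (y axis, median over the list of log2 level minus the gene's mean over the 8 arrays; 4 WT and 4 KO points per list), with the 6 groups of inner retinal markers left of the dotted line and the lists of other cells right of it. The inhibitory amacrine points separate by genotype (WT -0.09 to -0.02, KO 0.03 to 0.06), the points of the ganglion list's median overlap, and rod and microglia points lie further apart.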

How the data were processed

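Groups and replicate numbers of the 4 WT and 4 KO whole-retina samples were taken from the labels. The authors ran 1-colour hybridisations on Agilent SurePrint G3 mouse arrays and quantified scans with Agilent Feature Extraction 10.7.1.1, as the submitters' processing notes name it. The deposited scanner files hold linear intensity values of 62976 spots. The authors' value table, on a log2 scale after a 75th percentile shift, differed from the values here by an offset of 0.12 to 0.15 per array and served as an alternative. Of the per-sample columns, 0 could not be mapped.

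The processed signal was divided by the 75th percentile of its array (59305 non-control spots) and put on a log2 scale, with flagged outlier spots left out (86 to 147 per array). A probe was tested when every array of WT, of KO or of both had it well above background (33972 of 55681). Gene names came from RefSeq by transcript accession, which named 26413 probes (47.4%). Each gene was read from its brightest probe by mean over the 8 arrays, which left 14937 genes. The comparison of KO with WT used limma 3.58.1 (lmFit, eBayes) in R 4.3.3, and p-values were adjusted over the 33972 probes by Benjamini-Hochberg. The limits, an adjusted p under 0.05 and a fold over 1.2, are those of the study's figure legend, and its methods also name others. The steps were tested on simulated data.

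The 37 members and the lists were chosen with earlier results of these data known. Values in every array are given for each member called or without overlap, the largest difference of each group, and Gad1, Chat, Th, Calb1, Pax6, Rbpms and Pou4f2. Of the other lists, called genes and at most 5 others are named. Some listed genes are not reported here. Alternatives were other scalings, background correction (normexp with an offset of 50 on median signals), filters, flags, the authors' values, other variance models, array weights, the methods' t-test, a replicate block, other limits, averaging all probes of a gene, and dropping 1 sample at a time.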

Additional observations from a re-analysis of the deposited data

Results flagged for a closer look

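In 74 groups of 4 arrays (37 genes in 2 genotypes), the highest or lowest array was set against the others, and 4 groups had one standing apart, where chance flags about 1 in 20. WT replicate 4 was high for Nefm (3.15 against 3.03 to 3.04, gap over range 0.947) and for Pax6 (2.70 against 2.46 to 2.50, gap over range 0.852). WT replicate 1 was high for Slc6a9 (5.82 against 5.73 to 5.74, gap over range 0.845), still below the KO arrays. KO replicate 3 was low for Chat (-0.21 against -0.10 to -0.08, gap over range 0.852), which put it among the WT values.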

How the results depend on the processing

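Other limits, filters, variance models, the methods' t-test and the replicate block cannot change a member's difference. Over 25 alternatives, these included, 32 of the 37 genes had differences of 1 sign only (or 0.00). The exceptions were Onecut1 (0.00, with a range of -0.06 to 0.06), Slc5a7 (-0.01 with all probes of a gene averaged), Th (0.03 without WT replicate 3, in a range of -0.14 to 0.03 when arrays were left out), Slc18a2 (0.01 with the 75th percentile of detected probes, 0.03 without KO replicate 3, in a range of -0.04 to 0.03 when arrays were left out and down to -0.09 over all alternatives) and Sncg (0.02 with quantile normalization, 0.03 with cyclic loess). The count called higher went from 0 to 1 (Slc18a3) with quantile normalization, the 75th percentile of detected probes and cyclic loess, to 2 with no fold minimum, and stayed at 0 to 0 when arrays were left out. The count called lower was 0 to 1 when arrays were left out (Gap43 without KO replicate 1). At an adjusted p under 0.05, 2 members rose; this was 4 with quantile normalization, cyclic loess and array weights, 5 with trend and robust eBayes and with the methods' t-test, 1 with normexp, 0 with a median shift or no filter, and 0 to 1 when arrays were left out. The members that fell were 0, against 2 with normexp and array weights, 1 when probes had to be above background on all 8 arrays, 3 with trend and robust eBayes, and 0 to 2 when arrays were left out (2 without KO replicate 1). Genes without overlap went from 11 to 17 with quantile normalization, and those with KO above WT from 8 to 14, while a median shift gave 9 without overlap (7 above and 2 below); without an array they were 11 to 15 and 8 to 11, and those below 3 to 4. The inhibitory median (0.13) was 0.17 with quantile normalization and cyclic loess and 0.10 to 0.13 when arrays were left out; the ganglion median (0.04) was 0.07 with cyclic loess (0.02 to 0.06 when arrays were left out); the dopaminergic median (-0.01) was -0.05 with averaged probes, and -0.02 to 0.03 when arrays were left out; and the shared median (0.05) was 0.00 with averaged probes (0.04 to 0.08 when arrays were left out). The cholinergic and horizontal medians were 0.05 to 0.10 and 0.04 to 0.12 when arrays were left out. These causes were not tested. Scalings moved the median of all genes from -0.023 to at most 0.010.

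With the replicate number as a replicate block, 0 members rose at an adjusted p under 0.05 (Slc18a3 0.0749, Nefh 0.0753), and of the 8 genes called in the amacrine, starburst, axon and injury lists, Sst (0.0527), Vip (0.0564), Jun (0.0518) and Chac1 (0.0584) lost their call. Slc44a1 lost its call with no filter (0.0982) and with the methods' t-test (0.0577), and Chac1 with no filter (0.0957), a median shift (0.0838) and array weights (0.26, below the fold limit). With a fold over 1.5, Tubb2b and Atf3 stayed called among these 8. Same-numbered samples deviated together with correlations of 0.249, 0.069, 0.037 and 0.112, and differently numbered ones with -0.202 to 0.060. Each KO sample correlated best with the WT sample of its number. WT replicate 3 was slightly closer to KO replicate 4 (0.045) than to KO replicate 3 (0.037). The labels do not say whether the numbers pair the samples, so the block may be the fitting design. The main fit leaves the numbers out.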
